A study of Homo sapiens with 6 samples.

Results

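Cyclins, cyclin-dependent kinases (CDKs), CDK inhibitors, E2F factors and the proteins that act on them were examined as 1 set of 48 human genes, chosen by name. Of these, 47 had a probe set that carried that gene symbol alone, out of 19775 genes with such a probe set on the array, and CDKN2C was not analysed here. The cells were U87-2M1, an invasive line obtained from human U87 glioma cells by way of a lung metastasis assay in animals and then grown in culture. All 6 samples were passage 4 cells kept in hypoxia and transduced with a baculovirus, an insect virus that serves as a gene carrier. In 3 samples the vector carried a control decoy, and in the other 3 it carried a decoy for miR-10b, that is, a transcript meant to bind this microRNA and hold it away from its targets. Total RNA from each sample was labelled and hybridised to 1 array. These arrays do not measure whether the decoy bound miR-10b. The labels do not state that the replicates came from separate cultures, and the p-values then reflect only the scatter among 3 and 3 arrays, which may be technical.

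Progress through the cell cycle depends on CDKs, which are active only when bound to a cyclin. D-type cyclins with CDK4 or CDK6, then cyclin E with CDK2, phosphorylate the pocket proteins RB1, RBL1 and RBL2 and so release E2F factors, which switch on genes for DNA synthesis. Cyclins A and B with CDK1 drive mitosis, and their genes are activated late in the cycle by the MuvB complex together with B-MYB and FOXM1. In resting cells MuvB instead joins a pocket protein and E2F4 in the repressive DREAM complex, and CDK inhibitors hold the kinases in check. In glioma the RB pathway is often disabled by loss of CDKN2A or by amplification of CDK4.

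Signals are given as quantile-normalized linear intensities, and changes as log2 differences of signal + 7, miR-10b decoy minus control decoy, with the standard error (SE). A gene was called at an adjusted p under 0.05 in limma, Benjamini-Hochberg adjusted over 13842 tested genes. Genes whose mean signal lay under 15.6, the 30th percentile, were not tested. Normalization was needed because control replicate 3 had a trimmed mean deposited signal of 192, against 155 to 163 on the other arrays. Over the tested genes the correlation was 0.985 to 0.987 within a group and 0.967 to 0.973 between groups. The median difference of all tested genes was -0.02 after normalization and -0.14 in the values as deposited. The actin control probe sets gave a 3′ to 5′ ratio, which rises when RNA is degraded, of 5.73 ± 0.47 for control decoy and 8.54 ± 1.77 for miR-10b decoy arrays (SD, n = 3), and its part in the results was not tested. That of GAPDH was 0.945 ± 0.019 and 0.943 ± 0.007 (SD, n = 3). Of 10 glioma and glial markers, VIM, CD44 and NES were bright, with VIM at a mean of 9934, whereas GFAP, S100B, OLIG2, FABP7 and AQP4 lay under the filter level. The epithelial markers EPCAM, CDH1, KRT14, KRT19 and ESRP1, the endothelial VWF and CDH5, and the leukocyte PTPRC, CD14 and LYZ lay under it too. Others passed it. CLDN7, PECAM1, TEK and NES were called lower (-0.56, -0.40, -0.55 and -0.38) and SLC1A3 higher (0.73). The epithelial KRT5, KRT8 and KRT18, the endothelial KDR, the glial SOX2 and the leukocyte CD3E were not called. The summed signal of 7 fibroblast markers was 9113 to 9605 in controls and 7656 to 7667 with the miR-10b decoy. Of these COL1A2 was lower (-0.79), DCN and LUM were higher (0.84 and 0.77) and 4 did not pass, and without COL1A2 the sum was 4210.2 to 4565 in controls and 4688 to 4968 with the decoy. The sum of 9 epithelial markers was 265 to 288 and 216 to 248, or 134 to 164 and 143 to 152 without CLDN7, and that of 5 endothelial markers 253 to 324 and 207 to 214. The part of these markers in the results was not tested.

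Most of the regulators were lower with the miR-10b decoy. Of the 45 tested, 26 were lower, 6 were higher and 13 did not pass. Among all tested genes 17.3% were lower and 16.6% higher, 33.9% in either direction. The median difference of the 45 was -0.32, against -0.02 for all tested genes. For 30 of the 45 all 3 control arrays lay above all 3 decoy arrays, a separation seen in 24.0% of all tested genes, and for 6 the decoy arrays lay above all controls, against 22.4%. CDKN1C and CDKN2B lay under the filter level and were not tested. In the values as deposited 27 were lower and 2 higher, and after centring each array on its median 19 were lower and 6 higher. With per-gene variances in place of limma's moderated ones 12 were lower and 2 higher, and the calls of CDC25C, CDKN3, E2F3 and E2F8 ended there and in no other alternative. Across the 45, the median deviation from the control mean was -0.41, -0.31 and -0.29 on miR-10b decoy arrays 1, 2 and 3. In whole-culture RNA, fewer cells in a cycle phase and less RNA per cell cannot be told apart.

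**Figure D1:**
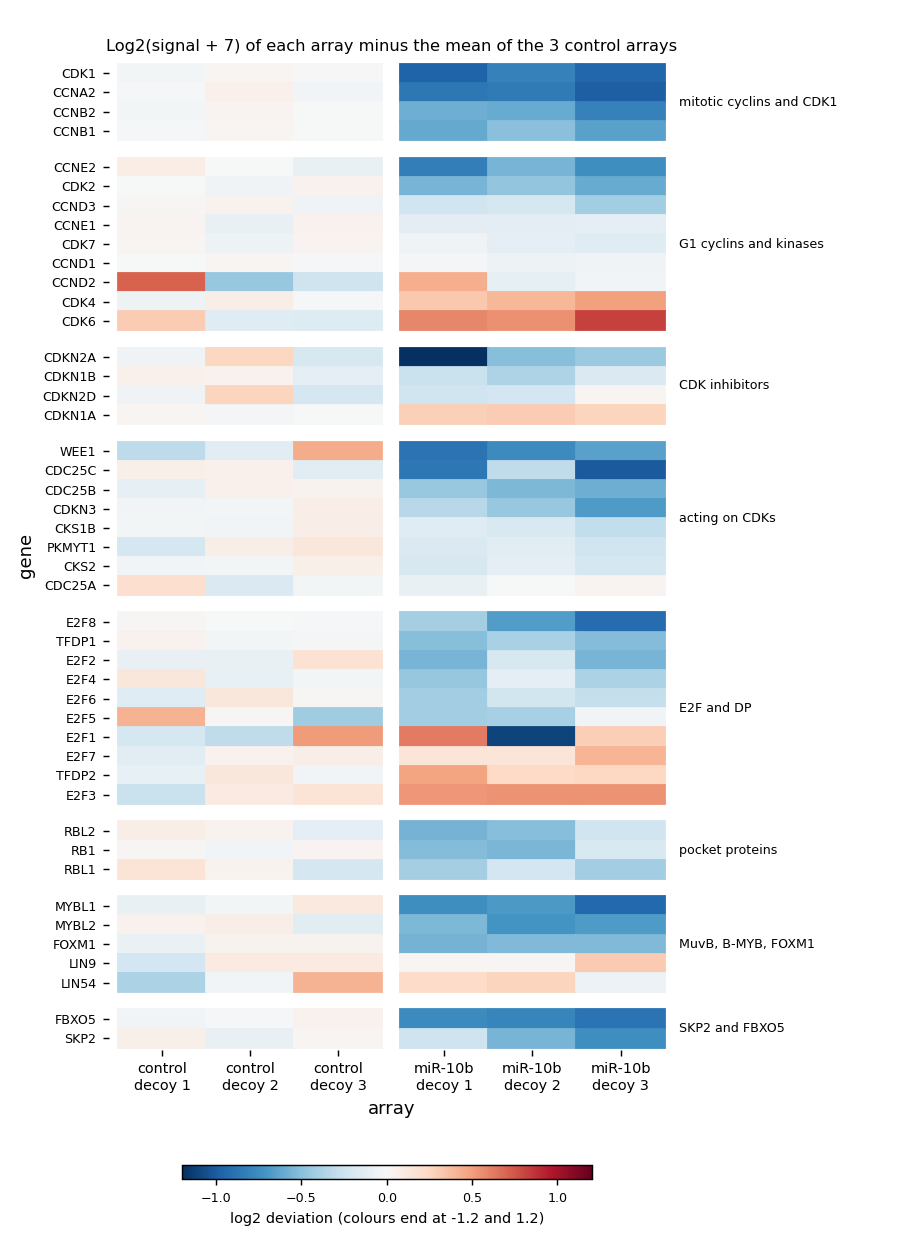
Each row is 1 of the 45 tested genes, grouped by role, and each column is 1 array; colour gives log2(signal + 7) minus the mean of the 3 control arrays, blue below and red above. The 3 miR-10b decoy columns are blue for most rows, with medians of -0.41, -0.31 and -0.29, while CDK4, CDK6, CDKN1A, E2F3, E2F7 and TFDP2 are red in all 3.

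The promoters of CDK1, the mitotic cyclins and FBXO5, all lower, are shown with that of CDK4, which rose. They come from RefSeq (build GRCh38.p14), run 5′ to 3′ along the gene's strand, and span 250 bases before to 50 bases after the start site. Capitals mark letters searched for on both strands: the E2F motif (TTTCGCGC, TTTGGCGC, TTTCCCGC or TTTGCCGC), the cell cycle homology region, CHR, to which MuvB binds (TTTGAA or TTCGAA), and the CCAAT box bound by NF-Y. Matches to different motifs did not overlap each other in these windows. The windows are CDK1 chr10:60778228-60778527 (+ strand), CCNB2 chr15:59104896-59105195 (+ strand), CCNB1 chr5:69166900-69167199 (+ strand), CCNA2 chr4:121823834-121824133 (- strand), FBXO5 chr6:152982992-152983291 (- strand) and CDK4 chr12:57752261-57752560 (- strand). For CDK1 and FBXO5, which have more than 1 start site, the window with the most matches is printed.
CDK1: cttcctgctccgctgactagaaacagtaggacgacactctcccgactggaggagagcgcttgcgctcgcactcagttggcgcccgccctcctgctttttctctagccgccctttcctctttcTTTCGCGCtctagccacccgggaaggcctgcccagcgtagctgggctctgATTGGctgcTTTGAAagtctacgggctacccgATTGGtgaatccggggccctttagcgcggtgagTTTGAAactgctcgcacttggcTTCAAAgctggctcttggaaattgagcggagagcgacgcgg
CCNB2: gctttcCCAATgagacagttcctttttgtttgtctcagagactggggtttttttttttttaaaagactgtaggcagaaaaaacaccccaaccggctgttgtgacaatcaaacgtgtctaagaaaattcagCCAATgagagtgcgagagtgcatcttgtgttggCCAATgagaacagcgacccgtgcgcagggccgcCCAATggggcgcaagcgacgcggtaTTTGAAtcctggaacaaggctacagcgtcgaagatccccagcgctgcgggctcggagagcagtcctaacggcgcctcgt
CCNB1: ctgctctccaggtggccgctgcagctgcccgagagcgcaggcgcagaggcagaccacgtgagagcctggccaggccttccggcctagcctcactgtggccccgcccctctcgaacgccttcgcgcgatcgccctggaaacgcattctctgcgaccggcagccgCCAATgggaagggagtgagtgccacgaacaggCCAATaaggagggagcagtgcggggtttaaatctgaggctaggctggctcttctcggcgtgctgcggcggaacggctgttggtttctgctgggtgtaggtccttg
CCNA2: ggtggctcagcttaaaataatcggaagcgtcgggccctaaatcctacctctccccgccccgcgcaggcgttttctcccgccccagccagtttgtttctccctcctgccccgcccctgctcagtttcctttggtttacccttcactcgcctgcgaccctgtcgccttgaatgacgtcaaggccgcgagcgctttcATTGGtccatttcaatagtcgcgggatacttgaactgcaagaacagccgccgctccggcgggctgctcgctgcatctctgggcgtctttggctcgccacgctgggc
FBXO5: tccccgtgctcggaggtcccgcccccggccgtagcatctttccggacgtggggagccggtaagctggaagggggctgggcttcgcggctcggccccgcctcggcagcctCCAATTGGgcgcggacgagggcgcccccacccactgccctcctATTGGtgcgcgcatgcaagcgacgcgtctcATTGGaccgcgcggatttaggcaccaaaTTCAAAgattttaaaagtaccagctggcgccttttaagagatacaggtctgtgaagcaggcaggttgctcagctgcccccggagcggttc
CDK4: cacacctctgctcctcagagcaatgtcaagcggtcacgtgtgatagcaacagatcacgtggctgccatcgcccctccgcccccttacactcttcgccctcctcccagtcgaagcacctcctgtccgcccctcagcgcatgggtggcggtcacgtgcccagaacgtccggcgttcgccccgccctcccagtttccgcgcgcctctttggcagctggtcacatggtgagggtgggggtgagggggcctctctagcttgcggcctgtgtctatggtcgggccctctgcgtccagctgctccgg

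The CDK1 window held 1 E2F match, 3 CHR matches and 2 CCAAT matches. In CCNB2 there were 4 CCAAT boxes followed by a CHR that began 29 bases before the start site. FBXO5 likewise had a CHR, on the opposite strand, that began 40 bases before it. CCNB1 and CCNA2 held CCAAT boxes and no match to the CHR letters used here, and CDK4 held none of the 3 motifs. CDK4 does not stand for all the higher genes. CDK6 and CDKN1A also held none, but E2F3 had all 3 motifs in 1 window. TFDP2 had CHR and CCAAT matches in different windows, and E2F7 had CCAAT boxes. RefSeq promoters were found for 37 of the 48 genes, in 59 windows. Of the 20 matched genes that were lower, 8 had a window with both a CHR and a CCAAT box (40.0%). That was so for 1 of the 6 that were higher, for 0 of the 9 tested genes that did not pass, and for 7.85% of all genes with a promoter in the table. By single windows the share was 32.3% of 31 for the lower genes and 6.38% of all 35116. An E2F match was present in 13.6% of the 59 windows and in 3.31% of all windows. Split by call, 3 of the 20 lower genes, 1 of the 6 higher and 3 of the 9 that did not pass had one. Among the matched regulators the lower genes thus did not stand out for the E2F motif. A match is a description of letters and not a measured binding site.

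CDK1 and the mitotic cyclins were all lower. CDK1, whose activity starts mitosis, had signals of 858, 895 and 883 in controls and 444, 499 and 450.3 with the miR-10b decoy. All 3 decoy arrays lay far below every control. Its difference was -0.91 (SE 0.07, adjusted p = 3.6e-06), a 1.89-fold fall in mean signal, and its other 3 probe sets gave -0.72, -0.99 and -1.195, without overlap. Cyclin A2 (CCNA2), the partner of CDK2 in S phase and of CDK1 later, gave 503, 529 and 494 in controls and 276, 280.3 and 253 with the decoy. The change was nearly as large, at -0.90 (SE 0.08, adjusted p = 8.7e-06). Cyclin B1 (CCNB1), the main mitotic partner of CDK1, had 1504, 1547 and 1515 against 995, 1071 and 965. Cyclin B2 (CCNB2) had 845, 883 and 861 against 573, 564 and 489.7. Neither gene's groups overlapped, and the differences were -0.59 (SE 0.06) for CCNB1 and -0.67 (SE 0.07) for CCNB2. The calls of CDK1, CCNA2 and CCNB1 held in all 16 alternatives, whereas that of CCNB2 ended with the mean of its probe sets (adjusted p = 0.71), 2 of which had mean signals under 35 and did not separate the groups.

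**Figure D2:**
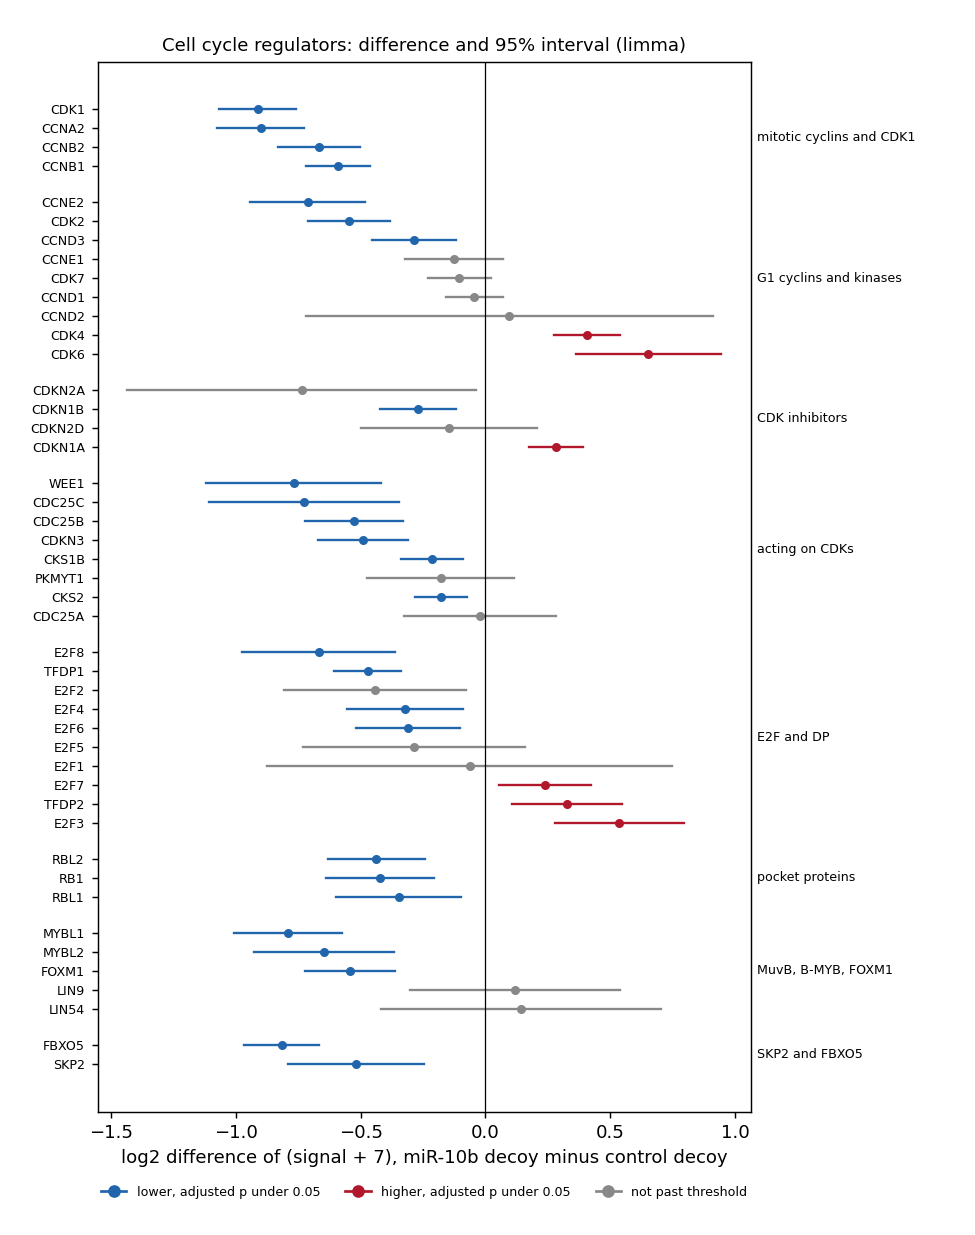
Points are log2 differences (miR-10b decoy minus control decoy) with limma 95% intervals for the 45 tested genes by role; blue is lower, red higher and grey not past the threshold. CDK1 at -0.91 and CCNA2 at -0.90 lie furthest left and CDK6 at 0.65 furthest right.

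Within the G1 cyclins and kinases 3 of 9 were lower, 2 higher and 4 not past the threshold. Among all tested genes 17.3% were lower and 16.6% higher, and a group this small does not stand apart from those shares. Cyclin E2 (CCNE2), a CDK2 partner made at the G1/S transition, had 273, 255 and 239.97 in controls and 141, 172 and 149 with the decoy. Its fall was the largest of this group, at -0.71 (SE 0.10, adjusted p = 0.00033). CDK2 itself had 528, 512 and 549.9 against 358, 379.8 and 346, a difference of -0.54 (SE 0.08, adjusted p = 0.00021). Cyclin D3 (CCND3) was lower at -0.29 (SE 0.08, adjusted p = 0.014), a call lost with centring (adjusted p up to 0.34 over all alternatives), with the mean of its probe sets, without moderation and when control replicate 2 was left out. The CDK2 call ended with the mean of its probe sets (adjusted p = 0.89), the dimmest of which had signals of 2.33 in controls and 10.6 with the decoy on average.

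CDK4 and CDK6, the kinases that pair with D-type cyclins, were higher. CDK4 had 1449, 1598 and 1499 in controls and 1892, 2004 and 2135 with the decoy. Every decoy array exceeded every control, and the difference was 0.41 (SE 0.06, adjusted p = 0.00039). CDK6 had 213, 155 and 153 against 261, 253 and 309, a difference of 0.65 (SE 0.13, adjusted p = 0.0028). Of its 7 probe sets, the next brightest 2 gave 0.72 and 0.39 with no overlap, and of the 4 dim ones 2 gave 0.64 and 0.76 and 2 gave -0.71 and -0.13. The CDK4 call ended in the values as deposited (0.28, adjusted p = 0.087), and that of CDK6 when its probe sets were averaged (0.33, adjusted p = 0.17) and without variance moderation.

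Cyclin D1 (CCND1), the mitogen-responsive partner of CDK4 and CDK6, did not pass. It had 1369, 1388 and 1353 in controls and 1349.6, 1317 and 1318 with the decoy, and the 95% interval of its difference ran from -0.16 to 0.07. Cyclin E1 (CCNE1), whose signals were 209 to 231 and 203 to 205, gave -0.12 with an interval from -0.32 to 0.07. CDK7, the catalytic subunit of the CDK-activating kinase, gave -0.10 with an interval from -0.23 to 0.02. Cyclin D2 (CCND2) lay close to the filter level, at 10.5 to 32.3 in controls and 15.4 to 25.5 with the decoy, and 3 of its 6 values were under it. On the probe sets used, and given only the scatter among these arrays, the intervals of CCND1, CCNE1 and CDK7 did not reach the fall of CDK2. A second bright CCND1 probe set varied far more. It ran from 512 to 1151 in controls and from 676 to 1078 with the decoy, at 0.09.

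**Figure D3:**
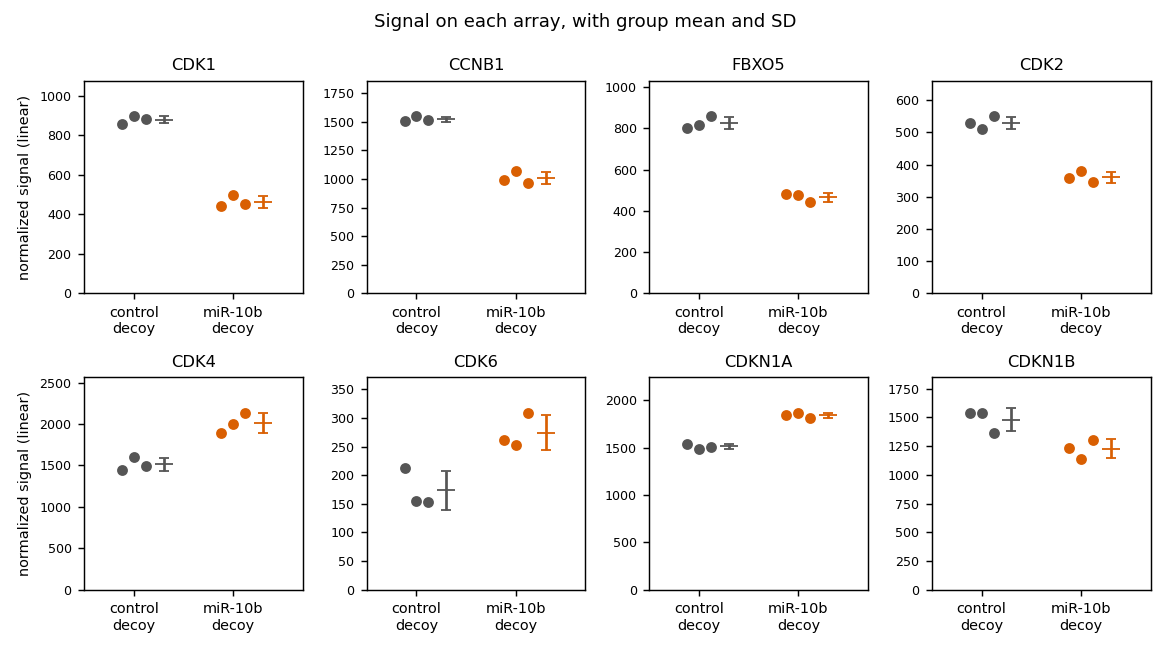
Normalized linear signals of 8 genes on each array (points), with the mean and SD of the 3 arrays per group beside them; axes start at 0. CDK1, CCNB1, FBXO5, CDK2 and CDKN1B are lower with the miR-10b decoy, and CDK4, CDK6 and CDKN1A are higher, without overlap between groups.

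Of 4 tested CDK inhibitors 1 was lower, 1 was higher and 2 did not pass, too few to set against the shares of all tested genes. CDKN1A, which encodes p21, which blocks CDK2 and CDK1, had 1543, 1489 and 1509 in controls and 1844, 1869 and 1817 with the decoy. The arrays of each group lay close together and apart from the other group. Its rise was 0.28 (SE 0.05, adjusted p = 0.0011), or 1.22-fold, but the call ended in the values as deposited (0.16, adjusted p = 0.38). CDKN1B, which encodes p27, had 1539, 1535 and 1363 against 1229, 1141 and 1306, a fall of 0.27 on the log2 scale (SE 0.07, adjusted p = 0.011). That call ended after centring, without the intensity trend, without moderation, and without control replicate 2 (adjusted p up to 0.092 over all alternatives) or miR-10b decoy replicate 2. CDKN2D, which encodes p19, an inhibitor of CDK4 and CDK6, gave -0.15 (interval from -0.50 to 0.20).

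Inhibitors from the 9p21 locus were near or under the filter level. CDKN2A, which encodes p16 and ARF, had 27.2, 35.4 and 23.8 in controls and 7.89, 17.9 and 19.1 with the decoy, on a probe set whose suffix marks possible cross-hybridisation. The groups did not overlap, but the difference of -0.74 (SE 0.32) did not pass (adjusted p = 0.098). Its other 2 probe sets had means between 2.79 and 6.26. CDKN2B, which encodes p15, had 1.46, 5.08 and 2.50 in controls and 3.09, 1.80 and 0.741 with the decoy. Their neighbour MTAP stood at 28.7 ± 4.24 and 27.6 ± 3.55 (SD, n = 3). U87 cells are widely described as lacking CDKN2A, as background, and these arrays cannot tell such low signals from none. CDKN1C, which encodes p57, had 2.35 to 26.4 in controls and 9.65 to 13.8 with the decoy.

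Proteins that act directly on CDKs were lower in 6 of 8 cases. WEE1, the kinase that restrains CDK1, had 342, 389 and 586 in controls and 228, 249.8 and 269 with the decoy. Control replicate 3 stood apart upwards, and the groups did not overlap. The difference was -0.77 (SE 0.16, adjusted p = 0.0031), its second probe set gave -0.74, and the call ended without moderation (adjusted p = 0.10). The phosphatase CDC25C, which activates CDK1, had 137, 136 and 118 against 68.2, 104 and 61.3, a difference of -0.73 (SE 0.17, adjusted p = 0.0072). Its relative CDC25B had 289, 327 and 323 against 226, 214 and 206, a difference of -0.53 (SE 0.09, adjusted p = 0.00088).

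CDC25A, the phosphatase that acts on CDK2 at G1/S, gave -0.02 with overlapping groups (interval from -0.33 to 0.28). Its dimmer probe sets gave -0.38 and -0.27, also with overlap. PKMYT1, the membrane-bound kinase that restrains CDK1, gave -0.18 (interval from -0.47 to 0.12). CDKN3, a phosphatase that removes the activating phosphate of CDKs, was lower at -0.49 (SE 0.08), with 1509 to 1638 in controls and 966 to 1233 with the decoy. The CDK-binding subunits CKS1B and CKS2 were among the brightest of the 45 genes. They fell by 0.21 and 0.18 on the log2 scale (adjusted p = 0.013 for each), and both calls ended after centring, without the intensity trend and without moderation, that of CKS1B also without control replicate 3.

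Among E2F factors and their DP partners 4 of 10 were lower, 3 higher and 3 not past the threshold. Of all tested genes 17.3% were lower and 16.6% higher. E2F8, an atypical repressor E2F made in S phase, had 142, 140.5 and 139 in controls and 104, 85.6 and 70.9 with the decoy. The controls were nearly equal and the decoy arrays spread below them, and the difference was -0.67 (SE 0.14, adjusted p = 0.0033). E2F7, the other atypical repressor, went the other way, with 867, 988 and 1009 against 1059.6, 1062 and 1264. Its rise of 0.24 (SE 0.08, adjusted p = 0.045) ended in 9 of the 16 alternatives, among them the values as deposited (adjusted p = 0.44) and leaving out control replicate 1 or 2 or miR-10b decoy replicate 2 or 3. Its dim second probe set gave -0.25, and with the mean of both its sign turned (-0.0055). E2F3, an activator E2F, had 133, 174 and 182 against 236, 238 and 239. The decoy arrays were nearly equal and all above the controls, a rise of 0.53 (SE 0.12, adjusted p = 0.0045), and its other probe set gave 0.33 with overlap.

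E2F1, the best known activator, varied widely within groups, at 63.3, 59.0 and 109 in controls and 118, 30.7 and 93.2 with the decoy. Its difference of -0.06 had an interval from -0.87 to 0.75, which does not resolve a moderate change in either direction. Its dimmer second probe set did separate the groups, with 90.2, 78.8 and 91.8 in controls and 52.7, 56.4 and 63.5 with the decoy, at -0.54. E2F2, also an activator, had 71.2, 71.2 and 87.3 against 49.4, 65.2 and 49.5, without overlap, at -0.44 (adjusted p = 0.061). It passed in the values as deposited (adjusted p = 0.031) and when miR-10b decoy replicate 2 was left out. E2F5 gave -0.29 with an interval from -0.73 to 0.16. The repressive factors E2F4 and E2F6 were lower at -0.32 and -0.31 (adjusted p = 0.035 and 0.025). The E2F4 call ended in 10 alternatives, among them the replicate block (adjusted p = 0.054) and leaving out control replicate 1 or 3 or miR-10b decoy replicate 1 or 3. Its second probe set gave 0.38, and with the mean of both its sign turned (0.027). The E2F6 call ended in 6, among them leaving out control replicate 2 or 3 or miR-10b decoy replicate 1.

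The DP proteins, obligate partners of most E2Fs, moved in opposite directions. TFDP1 had 1353, 1275 and 1288 in controls and 915, 997 and 908 with the decoy, a difference of -0.47 (SE 0.06, adjusted p = 0.00015) that held in all 16 alternatives. Its other probe sets gave -0.99 and -0.53. TFDP2 had 226, 267 and 235 against 341, 287 and 289.6, at 0.33 (SE 0.10, adjusted p = 0.027), a call that ended in 7 alternatives, among them the values as deposited and leaving out control replicate 1 or 3 or miR-10b decoy replicate 1.

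All 3 pocket proteins were lower. RB1, the retinoblastoma protein, had 459, 440.2 and 465 in controls and 316, 308 and 396 with the decoy. The third decoy array lay nearest the controls, and the difference was -0.42 (SE 0.10, adjusted p = 0.0062). RBL2, the pocket protein of resting cells, had 1243, 1209 and 1082 against 792, 823 and 998, at -0.44 (SE 0.09, adjusted p = 0.0027). Again the third decoy array was the highest of its group without reaching the controls. RBL1, itself an E2F-regulated gene, had 272, 249 and 207 against 179.7, 207 and 179, so that 1 array of each group nearly met at 207, and its difference was -0.35 (SE 0.11, adjusted p = 0.035). The RBL1 call ended in 9 of the 16 alternatives, among them leaving out control replicate 1 or 2 or miR-10b decoy replicate 1 or 3. The RB1 call ended without moderation (adjusted p = 0.078), and the mean of its 2 probe sets, of which the second averaged 7.63 and 13.2, gave 0.00063. The RBL2 call ended with the mean of its probe sets (adjusted p = 0.26) and without moderation.

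The activators of late cell cycle genes were lower. FOXM1, the forkhead factor of G2 and M phase, had 323, 352 and 354 in controls and 229, 236 and 235 with the decoy. The groups were tight and apart, with a difference of -0.54 (SE 0.08, adjusted p = 0.00042). The only FOXM1 probe set carries the suffix that marks possible cross-hybridisation. B-MYB (MYBL2), which joins MuvB in S phase, had 124, 127 and 108 against 79.7, 69.7 and 71.9, at -0.65 (SE 0.13, adjusted p = 0.0023). A-MYB (MYBL1), its relative, had 320.5, 333 and 369 against 201, 208 and 174, at -0.79 (SE 0.10, adjusted p = 0.00011). FOXM1 and MYBL2 passed in all 16 alternatives, and MYBL1 in 15, failing with the mean of its probe sets (adjusted p = 0.11). FOXM1 and MYBL2 have 1 probe set each, so that mean leaves their values unchanged and is no check on them. The MuvB core subunits LIN9 and LIN54 were dim, at 36.5 to 56.0 and 22.1 to 43.6 over all arrays, and gave 0.12 and 0.14 with overlapping groups (intervals from -0.30 to 0.54 and from -0.42 to 0.70).

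Both genes of ubiquitin-dependent control were lower. FBXO5, or EMI1, which inhibits the anaphase-promoting complex and so lets cyclins A and B accumulate, had 803, 817 and 858 in controls and 482, 475 and 442 with the decoy. This was a clean separation, with a difference of -0.81 (SE 0.07, adjusted p = 6.3e-06) that held in all alternatives, and the second probe set gave -0.65. SKP2, the ubiquitin ligase subunit that marks p27 for destruction, had 255, 227 and 246 against 203, 163 and 142, at -0.52 (SE 0.12, adjusted p = 0.0074). Transcripts of SKP2 and of its substrate gene CDKN1B were thus both lower. The SKP2 call ended when its probe sets were averaged and without moderation (adjusted p up to 0.09).

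The array carried 107 probe sets for the 47 genes. Those used for CDKN2A, CDKN1C, FOXM1, SKP2, PKMYT1 and LIN9 carry the suffix that marks possible cross-hybridisation. Of 19 further probe sets of lower genes at or above the filter level, 16 had the same sign as the brightest one, and 13 of these separated the groups. The 3 of opposite sign belonged to CCNB2, E2F4 and MYBL1. Of 10 further probe sets of higher genes 7 had the same sign, and the 3 of opposite sign belonged to CDK6 and E2F7. The calls of CDK4, CDKN1A, CDKN1B, CDC25B, CKS1B, CKS2, E2F6, E2F8, FOXM1 and MYBL2 rest on 1 probe set each.

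**Figure D4:**
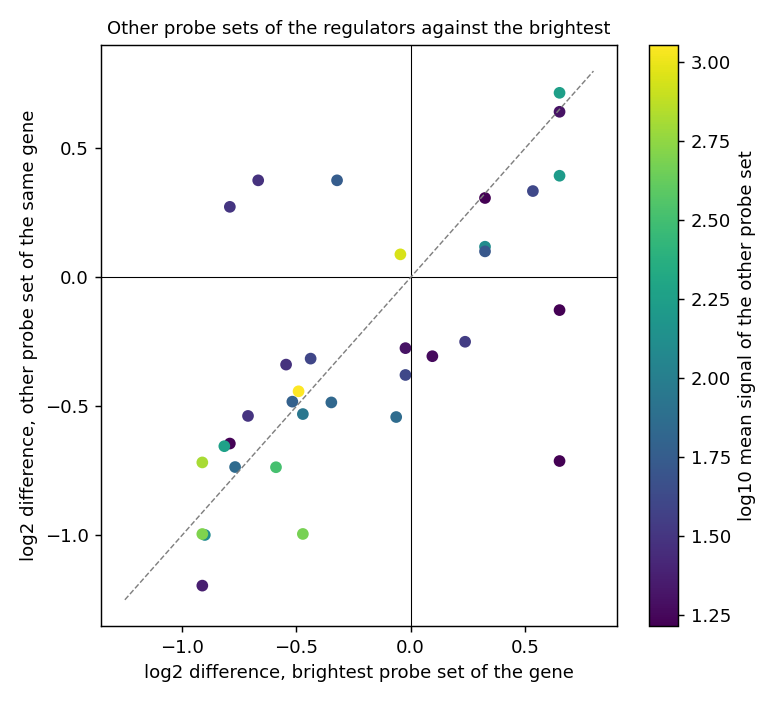
Each point is a further probe set at or above the filter level; the x axis gives the log2 difference of the gene's brightest probe set, the y axis that of the further one, and colour its log10 mean signal. Points of the lower genes mostly lie in the lower left (16 of 19), and the points off the dashed line of equality are mostly dim.

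Other genes of the pathway were taken from 5 lists. Of 26 mitotic genes regulated by MuvB and FOXM1, 25 were lower and 0 higher by limma, with a median of -0.68. The checkpoint gene MAD2L1 changed by -0.95, the kinesin KIF2C by -1.02 and the spindle protein DLGAP5 by -0.99, while the mitotic kinase PLK1 was dim (50.4 and 47.7 on average) and gave -0.02. At an unadjusted p under 0.05 the count of higher genes in this list was also 0, since 26 of 26 differences lay below 0. MKI67, the proliferation marker, fell from 255 ± 20.4 to 182 ± 18.3 (SD, n = 3), at -0.48 (SE 0.11, adjusted p = 0.0045). Its call ended without variance moderation (adjusted p = 0.051).

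Replication genes regulated by E2F were lower in 22 of 26 cases and higher in 0 by limma, again with all 26 differences below 0 and a median of -0.51. The origin recognition subunit ORC6 fell from 1919.6 ± 135 to 955 ± 188 (SD, n = 3), on a probe set with the suffix for possible cross-hybridisation. The helicase subunit MCM3 changed by -0.75 and thymidylate synthase (TYMS) by -0.69, and the polymerase clamp PCNA by -0.48, whereas MCM2 gave -0.02 (adjusted p = 0.89).

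Of 24 tested genes in a list of other cyclins, CDKs and their partner subunits, 3 were lower and 5 higher, with a median of 0.04. These shares lie near those of all tested genes, 17.3% lower and 16.6% higher. The atypical cyclins CCNG2 and CCNG1 (-0.58 and -0.42) and CDK16 (-0.30) were lower. CCNT2, a subunit of the elongation kinase, was higher at 0.44, as were CDK17 and the CDK5 activator CDK5R1 at 0.42 each, but 0 of this list were higher in the values as deposited. Of 22 ubiquitin ligase genes of the cell cycle 8 were lower and 2 higher, with a median of -0.09. Lower were FBXW7, which targets cyclin E, at -0.66, the APC/C subunit ANAPC11 at -0.36 and SKP1 at -0.24, and higher were UBE2S (0.23) and CDC27 (0.21), with 0 higher in the values as deposited and 5 after centring.

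Among 13 tested checkpoint and stress response genes 3 were lower and 6 higher, with a median of 0.17. The checkpoint kinases CHEK1 and CHEK2 were lower at -0.70 and -0.42, as was SFN at -0.50. MDM2, a ubiquitin ligase, rose from 1045 ± 81.7 to 1746 ± 101 (SD, n = 3), at 0.74 (SE 0.07, adjusted p = 1.5e-05). GADD45A and PLK3, both induced by stress, were higher at 0.63 and 0.72. At the locus that holds CDKN2A, 2 of 6 neighbouring genes passed the filter and 0 were called in either direction by limma. The reference gene GAPDH gave -0.02 (adjusted p = 0.66).

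**Figure D5:**
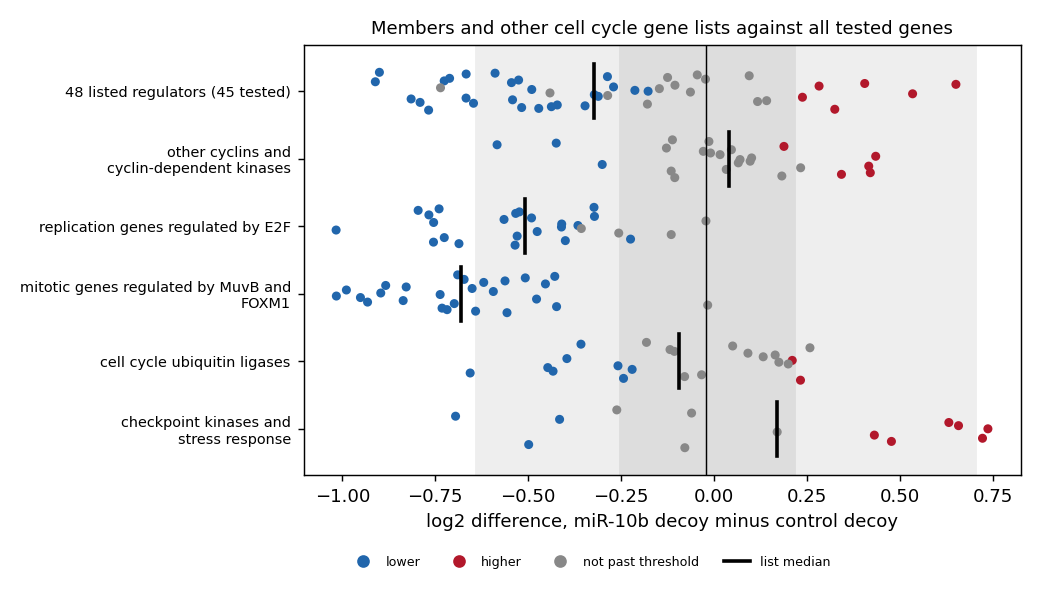
Points are log2 differences of the 45 tested regulators and of 5 other cell cycle lists, coloured by call, with a black bar at each median. The shaded bands hold the middle 50% (-0.25 to 0.22) and 90% (-0.64 to 0.70) of all tested genes; the medians of the mitotic and replication lists lie at -0.68 and -0.51, and that of the checkpoint and stress response list at 0.17.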

How the data were processed

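The authors deposited linear signal intensities for 54675 probe sets on 6 arrays, made with MAS5 per the submitters' processing notes, with version and target level not given in the sources used here. Of these, 41091 carried 1 gene symbol in the platform annotation and were not control probe sets. Per gene, the probe set with the highest mean deposited intensity over all 6 arrays was used. Intensities were quantile normalized over all probe sets and turned into log2(signal + 7), a scale that understates changes of dim genes. Genes whose mean signal fell short of the 30th percentile were left out. The test was limma 3.58.1 in R 4.3.3 (lmFit, eBayes with intensity trend, two-sided), with 7.67 prior and 4 residual degrees of freedom. It was also run on simulated data with independent noise and few changed genes, which left out the normalization step. The 48 genes are all named; of each pathway list, up to 3 genes per direction with the smallest p are named, plus MDM2, MKI67, PCNA, MTAP and GAPDH; PLK1 and MCM2 were chosen after their values were seen. 1 further gene of the rule is not reported here. The genes, lists and the normalization were chosen with earlier results of these data known. Replicate numbers did not pair the arrays, as the deviations of equally numbered arrays correlated with r from -0.027 to 0.029. The number of arrays limits the precision. Alternatives were other scalings, offsets, filters, probe set summaries and variance models, a replicate block, and each array left out in turn.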

Additional observations from a re-analysis of the deposited data

How the results depend on the processing

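Over 16 alternatives, 9 lower genes (CCNA2, CCNB1, CCNE2, CDC25B, CDK1, FBXO5, FOXM1, MYBL2 and TFDP1) and 0 of the 6 higher ones passed in every one. CDC25B, FOXM1 and MYBL2 have 1 probe set each, so the mean of all probe sets is no check on them. The number of lower genes ranged from 22 to 26 and of higher genes from 4 to 5 when each array was left out, with medians from -0.35 to -0.29 and 3714 to 4154 of all genes past the threshold. With the replicate block 25 were lower and 6 higher, and of the 32 calls only that of E2F4 ended. The mean of all probe sets, which takes in probe sets under the filter level, gave 17 lower, 3 higher, a median of -0.21 and 3035 of all genes past the threshold. Per-gene variances without moderation gave 12 lower, 2 higher (CDK4 and CDKN1A) and 2830 of all genes, against 4697 in the comparison as reported. All tested genes split into 2299 higher and 2398 lower there, 1092 and 2554 as deposited, and 2866 and 1737 after centring. In the values as deposited 2 were higher and the median was -0.41, and after centring it was -0.24. Signs turned, none past the threshold there, for CCND1 after centring (0.022) and with the mean of all probe sets (0.022), for CCND2 (-0.062), LIN9 (-0.037) and LIN54 (-0.022) as deposited, for CDC25A after centring (0.037), and with the mean of all probe sets for CCND2 (-0.16), CDKN2D (0.11), E2F2 (0.10), E2F4 (0.027), E2F7 (-0.0055), LIN9 (-0.15), MTAP (0.10) and RB1 (0.00063). With 1 array left out, the difference ran from -0.13 to 0.45 for CCND2, from -0.11 to 0.080 for CDC25A, from -0.40 to 0.46 for E2F1, from -0.048 to 0.35 for LIN54 and from -0.13 to 0.044 for MTAP. The cause was not tested. Low signal limits the precision of genes near the filter level: the 95% interval of CCND2 ran from -0.72 to 0.91 and that of CDKN2A from -1.43 to -0.04.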
